A study of Mus musculus with 15 samples.

Results

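TRBV2, TRBV4 and TRBV5 are V segments of the mouse T-cell receptor beta chain (TCRβ), and each is the only member of its family. Their receptors were taken as every entry whose deposited V gene was TRBV2, TRBV4 or TRBV5, in all 15 clonotype tables of the study. They made up 6770 of 59364 clonotypes, or 11.4%, with 823 for TRBV2, 2518 for TRBV4 and 3429 for TRBV5. Entries that differ in V family, J cluster or nucleotide CDR3, the loop in which V, D and J segments are joined, counted as different clonotypes. The same receptors held 21637 counts, or 6.23% of all counts.

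The study sequenced TCRβ chains of CD8 T cells from mice of the NOD (non-obese diabetic) strain, in which autoimmune diabetes arises spontaneously. All mice were 125 days old, and wild-type animals (WT) were compared with Ifngr1-mutant ones (mutant), which carry a mutation in a chain of the interferon-γ receptor. The kind of mutation is not given in the sources used here. Pooled cells of the spleen and the non-draining lymph nodes were stained with an H-2Kd tetramer holding a peptide of IGRP, an autoantigen of pancreatic beta cells, and were separated on magnetic beads. The retained tetramer-positive cells became the TET libraries, and CD8+CD44+ cells of the flow-through, which did not bind it, became the CD8 libraries. WT mice contributed 3 TET and 4 CD8 libraries, and mutant mice 4 of each kind. The TET library of the other WT mouse was not analysed here. The design text names 4 mice of each strain and calls each sample a biological replicate of its own. TET and CD8 libraries of the same number were taken to come from the same mouse, a link the labels do not state. The tables hold TCRβ chains only, so the labelled cell type could not be set against marker genes.

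A developing T cell builds its TCRβ chain by joining a D segment to a J segment and then a V segment to both, with bases trimmed and added at each joint. The V segment encodes the loops that mostly touch the MHC molecule and the first residues of the CDR3, while the joint supplies the centre of the CDR3, which mostly touches the peptide. The J segments lie in a pair of clusters, TRBJ1 and TRBJ2, each behind its own D segment. In the RefSeq annotation of assembly GRCm38.p6, Trbv2, Trbv4 and Trbv5 stand at places 2, 4 and 5 of the V segments in the locus, separated from each other and from its end by Trbv1 and Trbv3 only. Older names of the segments are Tcrb-V4 for Trbv2, Tcrb-V10 for Trbv4 and Tcrb-V1 for Trbv5.

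Nucleotide CDR3 sequences, read 5′ to 3′, are given as examples of each family. The number of bases aligned to the V segment varies within a family. It was 13 in both TRBV5 receptors printed and 16 in the TRBV5 receptor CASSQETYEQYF, where the 16 are the same as in the TRBV2 receptors printed. Capitals mark the bases that the deposited tables align to the V segment, and the first line of each family is the TET receptor of mutant mice with the largest share of its library's counts. Lines that follow give, for TRBV2, the largest by the same measure in WT TET libraries, and for TRBV4 and TRBV5 receptors found in 3 TET libraries, the most for any of the 3 families.
TRBV2 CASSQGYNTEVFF: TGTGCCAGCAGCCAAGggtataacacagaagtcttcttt
TRBV2 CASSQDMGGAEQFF: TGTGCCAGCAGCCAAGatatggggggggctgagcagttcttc
TRBV4 CASSP receptor: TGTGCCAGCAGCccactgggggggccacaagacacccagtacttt
TRBV4 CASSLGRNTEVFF: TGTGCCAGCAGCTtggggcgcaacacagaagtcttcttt
TRBV5 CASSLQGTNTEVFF: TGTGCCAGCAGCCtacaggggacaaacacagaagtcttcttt
TRBV5 CASSQ receptor: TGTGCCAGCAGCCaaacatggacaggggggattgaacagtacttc

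The opening CASSQ was the commonest first stretch of the CDR3 for TRBV2 and TRBV5, and it began 2.12% of TRBV4 clonotypes in WT CD8 and 3.66% in mutant CD8 libraries. In CD8 libraries it began 521 of 705 TRBV2 clonotypes (73.9%) and 1893 of 2959 TRBV5 clonotypes (64.0%). In TET libraries it began 96 of 118 TRBV2 clonotypes (81.4%) and 311 of 470 TRBV5 clonotypes (66.2%). The mutant libraries supply most of these TRBV5 clonotypes: as a mean over libraries the share was 69.8% ± 11.3 in mutant TET (SD, n = 4) and 24.2% in WT TET, where single libraries ranged from 0% to 72.7%. TRBV4 receptors were spread over many openings, of which CASSS (14.6%), CASSP (14.2%) and CASSY (12.5%) were the commonest in CD8 libraries, while CASSY (17.6%) led in TET libraries. Apart from those means, these shares are over pooled clonotypes, and none was tested.

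Depth differed between the libraries. The TET libraries held 2536 to 60164 counts in 97 to 2199 clonotypes, and the CD8 libraries 17116 to 32856 counts in 2040 to 9827 clonotypes. The tables do not say whether a count is a read or a unique molecular identifier, so intervals on shares cover counting error only. In bulk RNA, fewer cells of a clone and less TCRβ RNA per cell cannot be told apart. Library WT TET 2 and library mutant TET 4 stood apart: they shared 18 clonotypes that held 25.4% of the counts of the first and 88.9% of the counts of the second. None of the 18 was TRBV2, TRBV4 or TRBV5. Whether these sequences passed from one library to the other or were made separately in both mice cannot be told from the tables, and the shares and relative clone sizes of both libraries carry that limit. These clonotypes enter every comparison with other families, so results that move with this pair of libraries are also given without them. The family TRBV13 held 83.3% ± 10.05 of counts in TET libraries (SD, n = 7) and 49.0% ± 3.57 in CD8 libraries (n = 8), and values relative to the other families are also given without it.

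Whether these V segments are used by more or fewer tetramer-binding clones was addressed by counting each clonotype once. TRBV2 and TRBV5 took a larger share of clonotypes in TET than in CD8 libraries, and for TRBV4 the shares of both fractions lay close together. TRBV5 made up 7.20% ± 3.51 of TET clonotypes (SD, n = 7) and 5.50% ± 0.419 of CD8 clonotypes (n = 8). For TRBV2 the shares were 2.02% ± 0.860 in TET and 1.29% ± 0.148 in CD8. For TRBV4 they were 3.82% ± 1.03 in TET and 4.18% ± 0.179 in CD8.

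For TRBV5 the WT TET libraries gave 0.980%, 3.97% and 11.3%, which rest on 1, 5 and 11 clonotypes, and the mutant TET libraries gave 7.92%, 8.87%, 8.95% and 8.40%. The WT CD8 libraries gave 4.95%, 5.79%, 6.19% and 5.58%, and the mutant CD8 libraries 5.80%, 5.38%, 5.27% and 5.06%. All 4 mutant TET libraries lay above all 8 CD8 libraries, while the WT TET libraries lay on both sides of them. With edgeR's quasi-likelihood test and strain as a covariate, the log2 ratio of the TET to the CD8 share was 0.61 (SE 0.12, Benjamini-Hochberg adjusted p = 8.17e-06). Of 15 families tested, 13 (86.7%) were called in this comparison, 6 (40%) as higher and 7 (46.7%) as lower in TET, so a call here is the rule among families.

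For TRBV2 the WT TET libraries gave 0.980%, 0.794% and 3.09%, from 1, 1 and 3 clonotypes, and the mutant TET libraries 2.31%, 2.00%, 2.15% and 2.80%. The WT CD8 libraries gave 1.03%, 1.28%, 1.53% and 1.27%, and the mutant CD8 libraries 1.27%, 1.38%, 1.37% and 1.18%. Here too the mutant TET libraries all lay above the CD8 libraries, and the WT TET libraries did not. The log2 ratio was 0.71 (SE 0.16, edgeR adjusted p = 0.000156).

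For TRBV4 the WT TET libraries gave 2.94%, 2.38% and 3.09%, from 3 clonotypes each, and the mutant TET libraries 5.12%, 4.14%, 4.23% and 4.83%. In both strains CD8 values ranged from 4.01% to 4.50%. WT TET libraries all lay below the CD8 libraries, and mutant TET libraries overlapped with them. The log2 ratio was -0.0014 (SE 0.11, edgeR adjusted p = 0.990), and with TMM scaling it was -0.21 (adjusted p = 0.0273).

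Separate fits by strain called the higher shares of TRBV2 and TRBV5 in mutant mice only. The direct test of a strain difference in this ratio, given below, called neither family. In mutant mice alone the log2 ratio of TET to CD8 was 0.74 for TRBV2 (edgeR adjusted p = 8.5e-05) and 0.70 for TRBV5 (adjusted p = 7.45e-08). In WT mice alone it was 0.22 for TRBV2 and -0.12 for TRBV5, each with an adjusted p of 0.805, from 5 and 17 TET clonotypes in all. Without libraries WT TET 2 and mutant TET 4 the ratios over both strains were 0.70 for TRBV2 (adjusted p = 0.000238) and 0.65 for TRBV5 (adjusted p = 2.28e-05). After thinning to the smallest total they were 0.85 (adjusted p = 0.0187) and 0.57 (adjusted p = 0.000799).

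The segments that lie between and beside them in the locus had other shares. TRBV1 made up 10.9% ± 3.30 of TET clonotypes and 6.12% ± 0.980 of CD8 clonotypes, a log2 ratio of 0.87 (SE 0.11, edgeR adjusted p = 1.14e-08). TRBV3 had 1.55% ± 0.861 in TET and 4.63% ± 0.524 in CD8, a log2 ratio of -2.08 (SE 0.19, adjusted p = 1.52e-12). TRBV3, which was lower in TET, thus lies between TRBV2, which was higher, and TRBV4, which was not called.

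**Figure D1:**
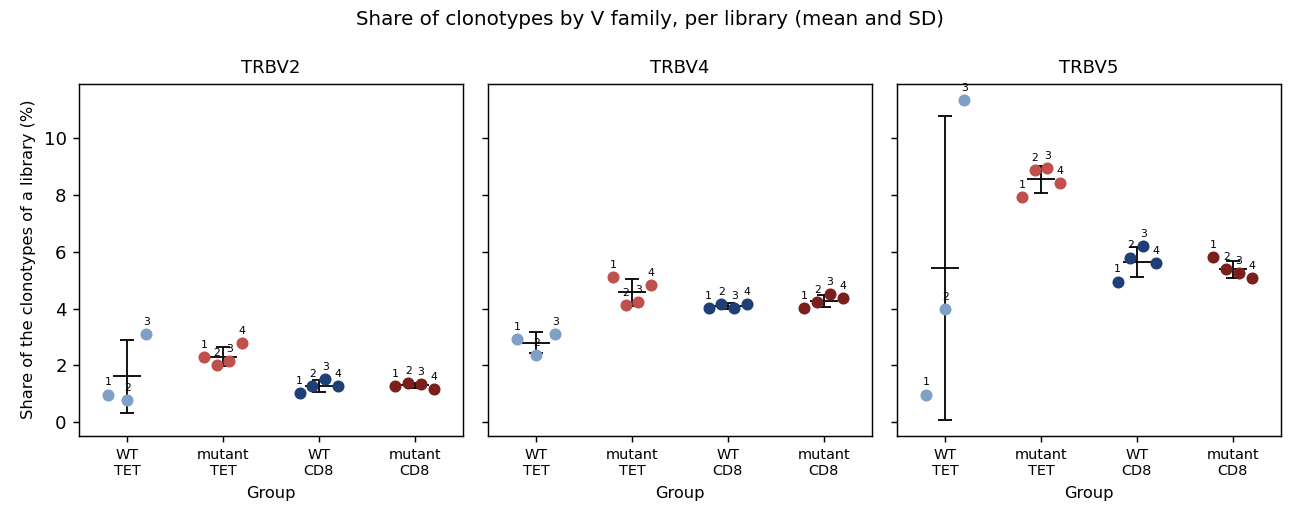
Share of the clonotypes of each library (%, vertical axis) that used TRBV2, TRBV4 or TRBV5 (panels), by group (horizontal axis), with 1 numbered point per library and the mean with SD in black. For TRBV5 the 4 mutant TET libraries lie between 7.92% and 8.95%, above all CD8 libraries, and the 3 WT TET libraries range from 0.980% to 11.3%.

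Whether the mutation of Ifngr1 changes the use of these segments was tested within each fraction. No difference between the strains was called for any of the 3 families where it could be tested. Among TET libraries the mutant share was higher by 0.73 on the log2 scale for TRBV5 (SE 0.38, edgeR adjusted p = 0.162) and by 0.67 for TRBV4 (SE 0.50, adjusted p = 0.255). TRBV2 had too few clonotypes in WT TET libraries to pass the filter on low counts, and 1 of the 8 families tested (12.5%) was called.

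The TRBV5 comparison turns on WT TET library 3. That library has 97 clonotypes in all, and 11 of them used TRBV5 (11.3%, exact binomial 95% interval 5.80% to 19.4%). Without it the log2 difference between mutant and WT TET was 1.72 (edgeR adjusted p = 0.00734), and over all single libraries left out the adjusted p ranged from 0.00734 to 0.601.

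The TRBV4 shares of the strains did not overlap among TET libraries, with 2.38% to 3.09% in WT and 4.14% to 5.12% in mutant mice. The exact binomial 95% intervals of single WT libraries are wide, however, and reach from 0.494% to 6.80% in library 2.

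Among CD8 libraries, where each family has 705 or more clonotypes in all, the strains lay close together. The log2 difference of mutant from WT was -0.03 for TRBV2 (SE 0.12, edgeR adjusted p = 0.864), 0.07 for TRBV4 (SE 0.08, adjusted p = 0.671) and -0.10 for TRBV5 (SE 0.08, adjusted p = 0.671). Of 17 families 0 (0%) were called by edgeR. The difference between the strain effect in TET and that in CD8 was 0.53 for TRBV2 (adjusted p = 0.549), 0.61 for TRBV4 (adjusted p = 0.335) and 0.82 for TRBV5 (SE 0.38, adjusted p = 0.205), with 0 of 15 families (0%) called. Without WT TET library 3 the TRBV5 value was 1.81 (edgeR adjusted p = 0.00875). With TMM scaling the TRBV2 and TRBV4 values changed sign, to -0.16 and -0.08, and the TRBV5 value was 0.13 (adjusted p = 0.849).

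Weighting each clonotype by its count asks how much of the TCRβ RNA the families hold. For all 3 families the shares of counts spread more widely over TET than over CD8 libraries. On a log scale the spread in TET was widest for TRBV2 and TRBV5. As an SD it was 0.585 percentage points for TRBV2, 2.36 for TRBV4 and 2.93 for TRBV5. TRBV5 held 3.97% to 4.62% of counts in the 8 CD8 libraries. It held 0.705%, 0.0735% and 8.36% in WT TET and 2.83%, 3.89%, 3.13% and 0.0814% in mutant TET. The lowest values are those of WT TET library 2 and mutant TET library 4, the pair that shared large clonotypes of other families. They rest on 11 and 49 counts.

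TRBV2 held 0.315% to 0.831% of counts in CD8 libraries. It held 0.121%, 0.00669% and 1.70% in WT TET libraries, from 6, 1 and 43 counts. In mutant TET libraries it held 0.503%, 0.499%, 0.360% and 0.0199%, the last from 12 counts. The lowest values were again those of the same pair. In WT TET library 2, finding no counts would still allow a share of up to 0.0201%. TRBV4 held 2.46% to 3.31% in CD8, 1.03%, 0.722% and 1.93% in WT TET, and 2.27%, 1.30%, 7.41% and 0.891% in mutant TET libraries. For TRBV4 the WT TET libraries lay below all CD8 libraries, and mutant TET library 3 lay above them. Without that library the TRBV4 shares in TET ran from 0.722% to 2.27%.

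None of the 3 families was called by count between TET and CD8. The log2 ratio of TET to CD8 was -0.44 for TRBV2 (SE 0.77, edgeR adjusted p = 0.616), -0.55 for TRBV4 (SE 0.46, adjusted p = 0.362) and -0.66 for TRBV5 (SE 0.75, adjusted p = 0.512). Of 17 families 10 (58.8%) were called, 1 (5.88%) as higher and 9 (52.9%) as lower in TET. Without libraries WT TET 2 and mutant TET 4 the ratios were -0.012 for TRBV2 (adjusted p = 0.979), -0.19 for TRBV4 and -0.20 for TRBV5 (adjusted p = 0.721 each). With same-numbered libraries as a block they were -1.42 (adjusted p = 0.220), -0.88 (adjusted p = 0.164) and -1.76 (adjusted p = 0.173). Without WT TET library 3 the TRBV2 and TRBV5 ratios were -1.59 and -1.70 (adjusted p = 0.0801 each). The TRBV4 value depended on mutant TET library 3 and on the scaling: it was -1.11 without that library (adjusted p = 0.00569), -1.26 without the largest clonotype of every family in each library (adjusted p = 0.0388), and 1.71 with TMM scaling (adjusted p = 0.0156). With TMM scaling the TRBV2 ratio was 0.25 and the TRBV5 ratio -0.0099. Between strains, edgeR called 0 of 14 families (0%) by count in TET and 0 of 17 (0%) in CD8.

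**Figure D2:**
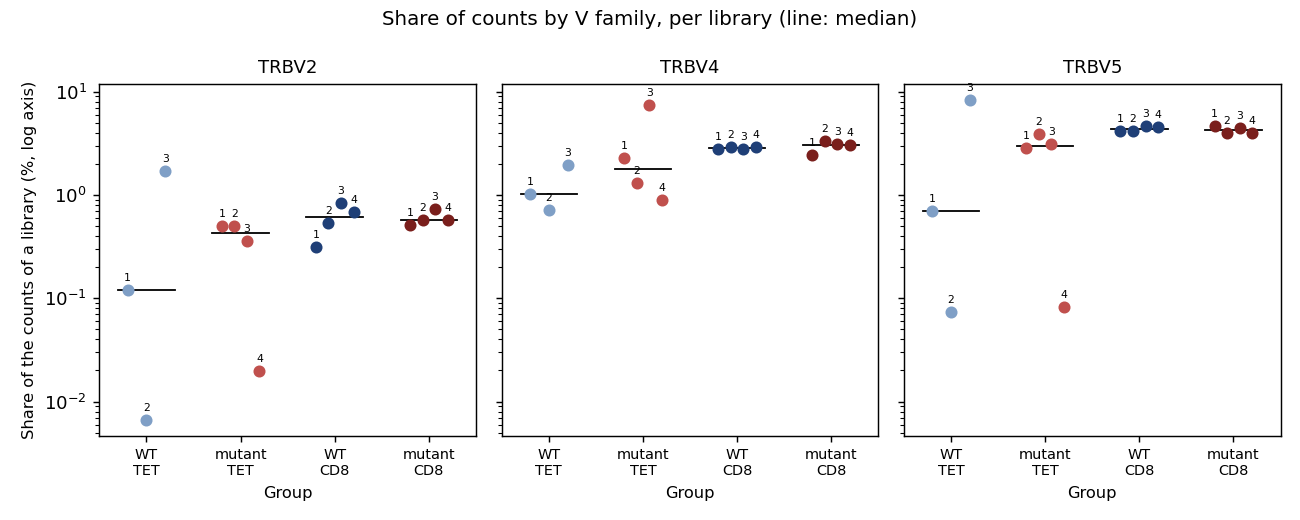
Share of the counts of each library (%, log axis) held by TRBV2, TRBV4 and TRBV5 (panels), by group, with 1 numbered point per library and a line at the median. The CD8 libraries lie closer together than the TET libraries. The lowest TRBV2 and TRBV5 points are those of WT TET library 2 and mutant TET library 4, and rest on 1 to 49 counts.

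Clones of these families were small next to the other receptors of the same library. The measure was the log2 ratio of the mean count per clonotype of a family to that of all other clonotypes of the library. In CD8 libraries it was -1.17 ± 0.29 for TRBV2, -0.55 ± 0.10 for TRBV4 and -0.37 ± 0.10 for TRBV5 (SD, n = 8). All 3 families were below 0 in 8 of 8 CD8 libraries (two-sided exact sign-flip permutation p = 0.00781, the smallest possible, adjusted p = 0.00830). Of 17 families, 15 (88.2%) were called as smaller and 1 (5.88%) as larger. With TRBV13 left out of it, the TRBV5 difference was -0.0013 (exact permutation, adjusted p = 0.984).

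In TET libraries the ratio was lower for TRBV2 and TRBV5. For TRBV2 it was -3.03, -6.90 and -0.89 in the WT and -2.22, -2.03, -2.60 and -7.17 in the mutant TET libraries, against -1.72 to -0.89 in CD8. For TRBV5 it was -0.48, -5.81 and -0.49 in the WT and -1.56, -1.27, -1.60 and -6.81 in the mutant TET libraries, against -0.51 to -0.24 in CD8. The values of WT TET library 2 and mutant TET library 4 were the lowest of both families. In WT TET the TRBV2 values rest on 1, 1 and 3 clonotypes, and that of library 2 on 1 count. The WT TET values of TRBV5 rest on 1, 5 and 11 clonotypes.

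TET was below CD8 by 2.38 on the log2 scale for TRBV2 (exact permutation within strain, p = 0.00408, adjusted p = 0.00499) and by 2.17 for TRBV5 (p = 0.00122, adjusted p = 0.00168). Of 11 families tested, 9 (81.8%) were called as smaller in TET. Without the pair of libraries the differences were -0.95 (adjusted p = 0.0210) and -0.61 (adjusted p = 0.00786). With TRBV13 left out of the reference they were -0.73 (exact permutation, adjusted p = 0.293) and -0.49 (adjusted p = 0.602), and with median in place of mean counts -0.58 (adjusted p = 0.224) and -0.34 (adjusted p = 0.643).

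TRBV4 was not called in this comparison. Its ratio was -1.55, -1.75 and -0.70 in the WT and -1.21, -1.71, 0.86 and -2.50 in the mutant TET libraries, against -0.73 to -0.36 in CD8. Each of the WT TET values rests on 3 clonotypes. Mutant TET library 3 was the only TET library in which any of the 3 families lay above 0. The TET minus CD8 difference was -0.69 (exact permutation, p = 0.0943, adjusted p = 0.0943). It was -1.02 without mutant TET library 3 (adjusted p = 0.00224) and -0.84 without WT TET library 3 (adjusted p = 0.0429).

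With TRBV13 left out of the reference the TRBV4 difference changed sign, to 1.19 (exact permutation, p = 0.0118, adjusted p = 0.0434). The ratios were then -0.24, 3.31 and -0.08 in the WT and 0.30, -0.19, 2.53 and 1.34 in the mutant TET libraries, against -0.39 to 0.05 in CD8. Against the families other than TRBV13, the mean TRBV4 count was thus higher in 4 of 7 TET libraries. In 3 of these the largest clonotype held most of the TRBV4 counts: 71.3% in WT TET library 2, 59.1% in mutant TET library 3 and 73.7% in mutant TET library 4. The call was lost without WT TET library 2, where the difference was 0.61 (adjusted p = 0.217). It was lost as well without mutant TET library 1 (1.30, adjusted p = 0.0606), 3 (0.93, adjusted p = 0.0808) or 4 (1.13, adjusted p = 0.0606). Without single CD8 libraries the difference was 1.16 to 1.24, with an adjusted p of 0.0838 to 0.126.

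Between strains, 0 of 11 families (0%) in TET and 0 of 17 (0%) in CD8 were called by the exact permutation test on relative clone size. Means in mutant TET were -3.51 for TRBV2, -1.14 for TRBV4 and -2.81 for TRBV5, and the WT TET means were -3.61, -1.33 and -2.26. With 3 against 4 libraries the smallest possible p was 0.0286.

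**Figure D3:**
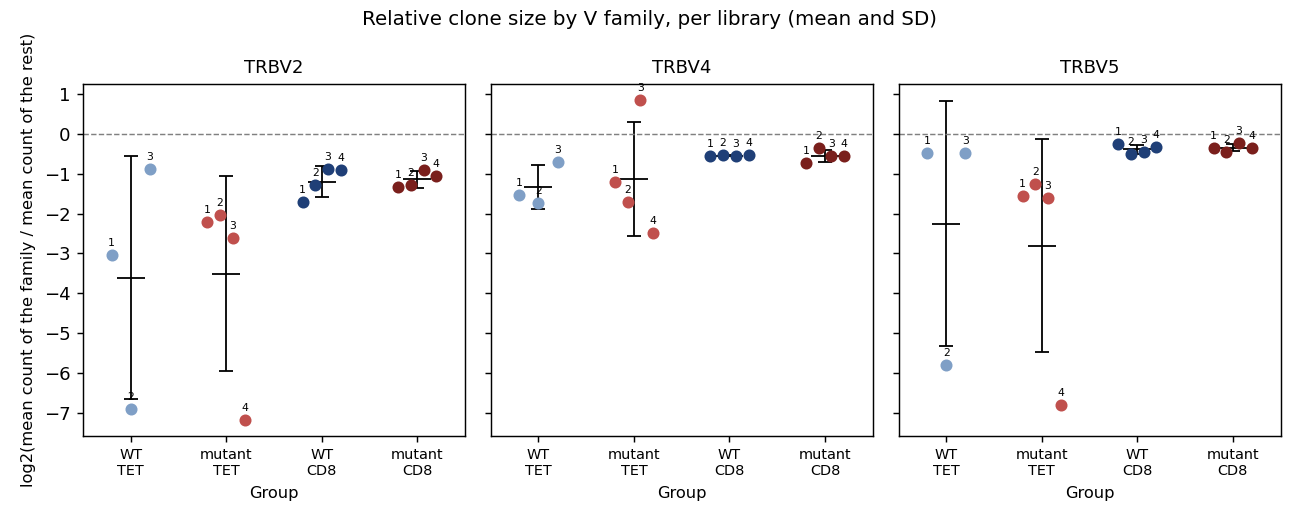
Relative clone size, the log2 ratio of the mean count of a family to that of all other clonotypes of the library (vertical axis), for TRBV2, TRBV4 and TRBV5 (panels), by group, with 1 numbered point per library and the mean with SD in black. The dashed line at 0 marks equal mean counts. WT TET library 2 and mutant TET library 4 are lowest for TRBV2 and TRBV5. TRBV4 in mutant TET library 3 lies at 0.86. The WT TET values rest on 1 to 11 clonotypes per library.

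In mutant TET libraries most clones of the 3 families that held at least 0.1% of their library's counts used TRBV4. Most of those were in library 3. Among mutant TET libraries, a share of at least 0.1% of the library was reached by 0 of 113 TRBV2 clonotypes. A 0 of 113 allows up to 2.65% by counting error over pooled clonotypes only, which leaves out the spread between libraries. The 0.1% share was reached by 1 of 453 TRBV5 clonotypes (0.221%) and 15 of 230 TRBV4 clonotypes (6.52%). In all other families 505 of 4424 clonotypes (11.4%) reached it. The 15 TRBV4 clonotypes comprise 2, 0, 12 and 1 in mutant TET libraries 1 to 4. Without library 3 the TRBV4 share was 3 of 161 (1.86%), against 341 of 3043 (11.2%) in the other families, and without library 2 it was 15 of 139 (10.8%), against 411 of 2555 (16.1%). In WT TET libraries, which hold far fewer clonotypes, 4 of 5 TRBV2, 8 of 9 TRBV4 and 10 of 17 TRBV5 clonotypes did, against 195 of 294 (66.3%) in the other families. The shares are over pooled clonotypes of libraries of unequal depth and were not tested. A cut of 10 counts gave another order: it was reached by 24, 22, 25 and 0 TRBV5 clonotypes in mutant TET libraries 1 to 4. The TRBV4 numbers were 16, 0, 25 and 3, those of TRBV2 were 0, 0, 1 and 0, and none was tested.

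The largest TRBV4 receptor was the CASSP receptor printed in the first part of the text, in which 12 bases aligned to the V segment. It had 962 counts (4.38% of counts) in mutant TET library 3, 51 counts in mutant TET library 4 and 2 counts in mutant CD8 library 3, all with the same nucleotide sequence. It made up 59.1% of the TRBV4 counts of mutant TET library 3. The largest TRBV4 receptor of mutant TET library 4, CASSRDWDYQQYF, named after its value was seen, had 395 counts, 73.7% of the TRBV4 counts there, and was found in no other library. Without its largest clonotype TRBV4 held 3.17% of counts in mutant TET library 3 and 0.236% in mutant TET library 4.

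The largest TRBV2 and TRBV5 receptors of mutant TET libraries were far smaller. By share of the library's counts they were the TRBV2 receptor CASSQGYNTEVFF, with 8 counts (0.0463%), and the TRBV5 receptor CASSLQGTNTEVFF, with 19 counts (0.110%), both in library 1 and in no other. By count, library 3 held a TRBV2 receptor of 10 counts, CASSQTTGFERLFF, and a TRBV5 receptor of 19. In WT TET the largest by share were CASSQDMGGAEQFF of TRBV2, with 21 counts (0.828%), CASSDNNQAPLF of TRBV4, with 24 counts (0.946%), and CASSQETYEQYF of TRBV5, with 30 counts (1.18%), all in library 3, the shallowest. By count, the largest TRBV4 receptor of WT TET was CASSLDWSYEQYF, with 77 counts (0.515%) in library 2, and the largest of TRBV5 was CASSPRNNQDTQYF, with 35 counts (0.705%) in library 1; these receptors were named after their counts were seen, as was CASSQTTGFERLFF. In CD8 libraries the largest receptor of the 3 families was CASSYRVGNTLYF of TRBV4, with 82 counts (0.279%) in mutant library 2.

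Most receptors of these families were found in 1 library of a fraction only. In TET, 2 of 114 TRBV2 receptors (1.75%), 12 of 223 TRBV4 receptors (5.38%) and 21 of 439 TRBV5 receptors (4.78%) were found in 2 or more libraries, against 344 of 4225 (8.14%) in the other families. A receptor here is a V family with an amino acid CDR3. Of these, 2 of 2 for TRBV2, 12 of 12 for TRBV4 and 20 of 21 for TRBV5 were shared among mutant mice only. The TRBV5 receptor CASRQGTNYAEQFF was the 1 found in both strains, with 17 counts in WT TET library 3 and 1 count in mutant TET library 2. The WT TET libraries hold 97 to 126 clonotypes each, and the part of this in the sharing was not tested. WT TET held 5 TRBV2, 9 TRBV4 and 17 TRBV5 clonotypes, against 113, 230 and 453 in mutant TET. The split by strain was not counted for the other families, so it cannot be called particular to these 3.

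The TRBV4 receptor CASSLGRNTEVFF was found in mutant TET libraries 2, 3 and 4 with 5, 1 and 2 counts, and in mutant CD8 library 4 with 3 counts. It was encoded by 2 different nucleotide sequences. The TRBV5 receptor with the opening CASSQ printed beside it was found in the same 3 TET libraries with 4, 9 and 1 counts, all of 1 nucleotide sequence. Another library held 2 TRBV4 and 2 TRBV5 TET clonotypes, and 0 of TRBV2, at 10 or more times the count. These are 0.837%, 0.426% and 0% of the TET clonotypes of each family, against 146 of 4718 (3.09%) in the other families.

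In CD8 the most widely shared receptor of the 3 families was a TRBV5 receptor of 15 residues that opened with CASSQDWG, found in 5 of 8 libraries with 2 to 7 counts and 4 nucleotide sequences. Few TET clonotypes recurred in the CD8 library of the same number and strain: 4 of 118 for TRBV2 (3.39%), 4 of 239 for TRBV4 (1.67%) and 3 of 470 for TRBV5 (0.638%), against 111 of 4718 (2.35%) in the other families. By mutant TET library, these shares were 0% to 8.70% for TRBV2 and 1.10% to 5.26% for TRBV4. They were 0% to 3.03% for TRBV5 and 1.52% to 4.55% for the other families. Mutant CD8 libraries of other numbers held, as means, 1.45% to 3.03%, 0% to 3.51%, 0% to 1.60% and 1.73% to 2.63% in that order. The ranges overlap, and the difference was not tested.

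The CDR3 loops of TRBV2 and TRBV5 were longer than those of the other families, and those of TRBV4 were not. In CD8 libraries the mean length was 14.6 ± 0.171 residues for TRBV2 and 14.5 ± 0.0743 for TRBV5 (SD, n = 8), against 13.9 in the rest of the same libraries. The difference was 0.764 residues for TRBV2 and 0.691 for TRBV5, each longer in 8 of 8 libraries (exact sign-flip permutation p = 0.00781, the smallest possible, adjusted p = 0.0133). TRBV4 had a mean of 13.9 ± 0.129 residues and differed by 0.0264 (exact permutation, adjusted p = 0.664). Of 17 families, 14 (82.4%) were called in this comparison, 7 (41.2%) as longer.

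The most frequent length was 15 residues for TRBV2 and TRBV5 and 14 residues for TRBV4 and for the other families pooled, in both fractions. In CD8 libraries, loops of 16 or more residues made up 25.4% of TRBV2, 21.0% of TRBV5, 9.17% of TRBV4 and 10.99% of all other clonotypes.

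In TET libraries the same order was seen. TRBV2 was longer than the rest by 1.05 residues and TRBV5 by 0.643, in 7 of 7 libraries each (exact permutation p = 0.0156, the smallest possible), with an adjusted p of 0.0573 and 0 of 11 families (0%) called. With TRBV13 left out of the reference the differences were 0.948 and 0.572 (exact permutation, adjusted p = 0.0344 each). In WT TET the family means rest on 1, 1 and 3 clonotypes for TRBV2 and on 1, 5 and 11 for TRBV5. In mutant TET the means were 14.6 residues for TRBV2 and 14.5 for TRBV5, against 13.8 in the rest.

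TRBV4 loops were shorter in TET than in CD8. Mean lengths were 13, 14 and 12.7 residues in the WT and 13.9, 13.4, 13.6 and 13.5 in the mutant TET libraries, against 13.7 to 14.1 in CD8, so the fractions overlap in 2 TET libraries. The difference was -0.508 residues (exact permutation within strain, p = 0.0102, adjusted p = 0.0374), and 4 of 11 families (36.4%) were called. That value averages -0.706 in WT mice, where each TET mean rests on 3 clonotypes, and -0.310 in mutant mice. Loops of 16 or more residues were 9 of 239 in TET (3.77%) and 209 of 2279 in CD8 (9.17%). The call was lost with same-numbered libraries as a block (-0.469, adjusted p = 0.215), without WT TET library 1 or 3, mutant TET library 2, mutant CD8 library 4 or any WT CD8 library, with an adjusted p of up to 0.0943. It held without WT TET library 2 and mutant TET library 4 together (-0.681, adjusted p = 0.0210).

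For TRBV5 the TET minus CD8 difference was -0.214 residues (exact permutation, adjusted p = 0.127), and for TRBV2 it was 0.170 (adjusted p = 0.805). Between strains the exact test called 0 of 11 families (0%) in TET and 0 of 17 (0%) in CD8. TRBV5 loops had means of 14.2 in WT and 14.5 in mutant TET libraries, and 14.6 and 14.5 in the CD8 libraries of WT and mutant mice.

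**Figure D4:**
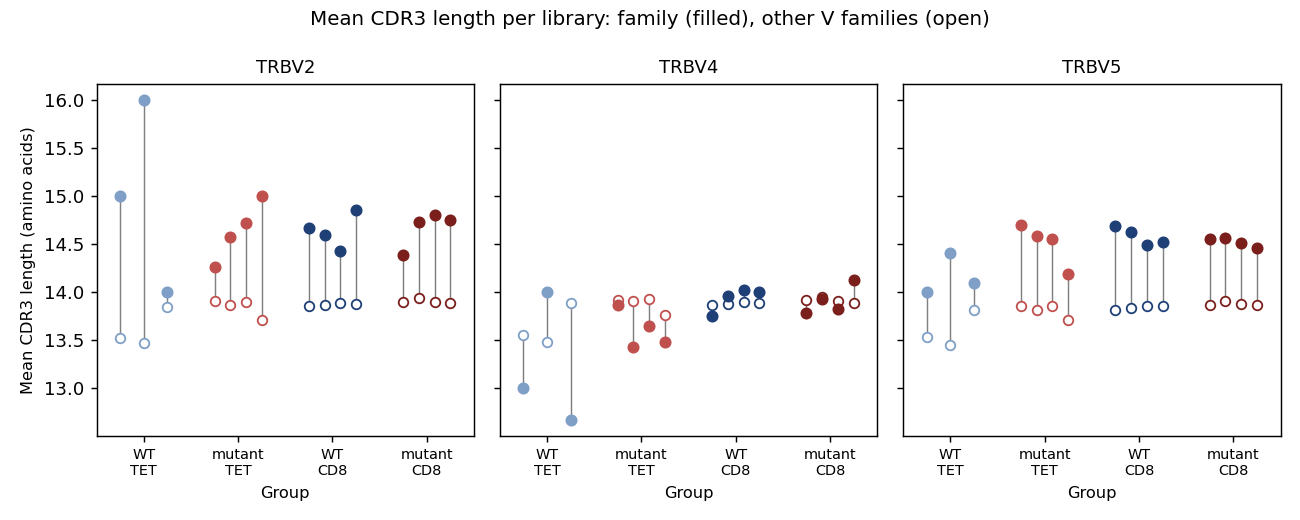
Mean CDR3 length in amino acids (vertical axis) of TRBV2, TRBV4 and TRBV5 (panels), by group, with 1 filled point per library for the family and 1 open point, joined by a line, for all other clonotypes of that library. TRBV2 and TRBV5 lie above the open points in all 15 libraries, and TRBV4 lies close to them in CD8. The filled WT TET points rest on 1 to 11 clonotypes per library.

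In CD8 libraries the share of clonotypes joined to the TRBJ1 cluster lay close to that of the other V segments for all 3 families. TRBJ1 was used by 30.3% ± 2.16 of TRBV2, 26.9% ± 3.01 of TRBV4 and 25.9% ± 3.16 of TRBV5 clonotypes (SD, n = 8), against 28.2% to 28.4% in the rest. No difference from the rest was called for any of the 3, by exact permutation, with adjusted p of 0.106 for TRBV2, 0.249 for TRBV4 and 0.106 for TRBV5. Of 17 families the same test called 12 (70.6%), 5 (29.4%) as higher and 7 (41.2%) as lower. With TRBV13 left out of the reference the TRBV2 difference was 4.07 percentage points, higher in 7 of 8 libraries (exact permutation, adjusted p = 0.0221), and without WT CD8 library 2 it was 2.97 (adjusted p = 0.0266).

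In TET the TRBJ1 share of all 3 families was high in mutant mice, where the other families were high as well. For TRBV2 it was 47.8%, 43.2%, 48.6% and 54.5% in mutant TET libraries, against 28.7% to 30.8% in mutant CD8. For TRBV5 it was 31.6%, 30.3%, 40.4% and 39.4%, against 20.2% to 29.9%. For TRBV4 it was 41.2%, 44.0%, 37.7% and 26.3%, against 21.6% to 31.4%. Mutant TET and mutant CD8 libraries did not overlap for TRBV2 and TRBV5, and overlapped for TRBV4. The clonotypes outside the family gave 41.7% to 42.5% in mutant TET and 27.2% to 27.4% in mutant CD8 as means.

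In WT TET libraries the shares rest on few clonotypes. They were 0%, 0% and 33.3% for TRBV2, 0%, 0% and 33.3% for TRBV4, and 0%, 40.0% and 9.09% for TRBV5. Over both strains no TET minus CD8 difference was called: it was -0.471 percentage points for TRBV2 (exact permutation, adjusted p = 0.997), -2.69 for TRBV4 (adjusted p = 0.801) and -0.0130 for TRBV5 (adjusted p = 0.997), with 1 of 11 families (9.09%) called. The means of WT and mutant mice went opposite ways. Differences were -19.6 and 18.6 for TRBV2, -16.9 and 11.6 for TRBV4 and -10.6 and 10.6 for TRBV5. This contrast of the strains was not tested, and the WT libraries did not agree. TET exceeded the same-numbered CD8 library in WT 3 for TRBV2 (by 0.623) and TRBV4 (5.12). It did so in WT 2 for TRBV5 (14.7), while the other WT pairs went the other way. Clonotypes outside the family gave means of 32.6% to 33.2% in WT TET and 29.1% to 29.3% in WT CD8. Mutant TET exceeded WT TET by 37.4 percentage points for TRBV2 (exact permutation p = 0.0286, the smallest possible for 3 against 4), 26.2 for TRBV4 (p = 0.0571) and 19.1 for TRBV5 (p = 0.143). The adjusted p was 0.269 for each, and 0 of 11 families (0%) were called.

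**Figure D5:**
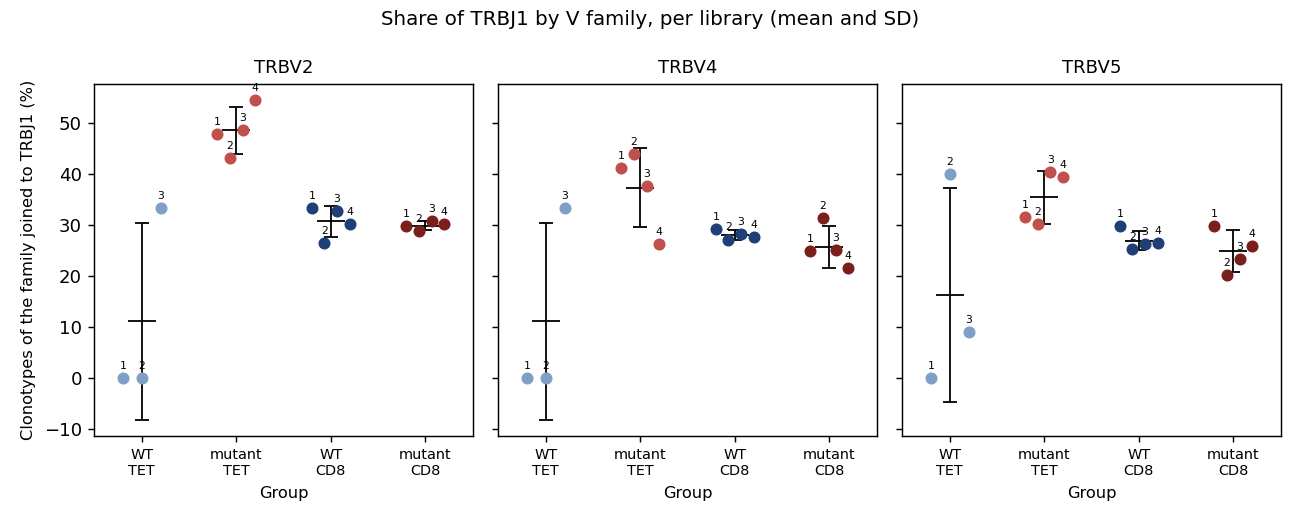
Share of the clonotypes of TRBV2, TRBV4 and TRBV5 (panels) that were joined to TRBJ1 (%, vertical axis), by group, with 1 numbered point per library and the mean with SD in black. The mutant TET libraries of TRBV2 (43.2% to 54.5%) lie above its CD8 libraries, and the WT TET values rest on 1 to 11 clonotypes per library.

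The J segments were told apart only where the J length in the tables fits 1 segment. In CD8 libraries TRBJ2-7, the last J segment of the locus, was used by 24.0% ± 2.34 of TRBV4 and 23.5% ± 1.41 of TRBV5 clonotypes, and by 16.6% ± 4.59 of TRBV2 clonotypes (SD, n = 8). TRBJ2-1 was used by 10.4% ± 3.58 of TRBV2, 14.5% ± 2.80 of TRBV4 and 13.6% ± 2.80 of TRBV5 clonotypes. All other V families gave 21.9% ± 1.40 for TRBJ2-7 and 14.2% ± 0.686 for TRBJ2-1, close to TRBV4 and TRBV5. These shares were not tested. In TET libraries the means for TRBJ2-7 were 27.7% ± 33.5 for TRBV2, 30.1% ± 17.6 for TRBV4 and 11.1% ± 8.24 for TRBV5 (SD, n = 7). Pooled over TET clonotypes, where the mutant libraries weigh most, they were 21 of 118 (17.8%), 51 of 239 (21.3%) and 71 of 470 (15.1%). In all other V families the TET mean was 18.0% ± 2.99 and the pooled share 749 of 4718 (15.9%). For TRBV4 the TET mean thus lies above the CD8 mean and the pooled TET share below it.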

How the data were processed

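TCRβ libraries were made from RNA by template switching with 9-nt unique molecular identifiers, per the labels' protocols. The authors deposited 1 table per library with counts per CDR3 and a fraction of the library total, a CDR3 length in amino acids and other fields such as V and J family names. Which aligner, caller and build were used is not given in the sources used here. The fractions were used only to find that the tables hold 94.2% to 99.2% of the deposited totals. Shares were recomputed from counts, after 4 alpha chain entries (6 counts) were left out.

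The members, lists and tests were chosen with earlier results of these data known. Clonotypes and counts per V family were tested with edgeR 4.0.16 (R 4.3.3; quasi-likelihood, library total as size, filterByExpr minimum count 10, called at an adjusted p under 0.05, Benjamini-Hochberg over all families tested). TRBJ1 share, length and relative clone size were tested over libraries with exact two-sided permutation tests (numpy 2.4.6), over families with at least 1 clonotype in each library. Exact binomial intervals were computed with scipy 1.17.1. TET was compared with CD8 by permuting the fraction within strain, and a family with the rest of its library by flipping signs. Tests were checked on simulated data with the same dispersion or variance set for every library. That setting leaves out the wider spread between TET libraries.

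Named receptors were, per family, the 3 in the most TET libraries, the largest in each group and the 2 in the most CD8 libraries, and not all are printed. J segments were read from the J length in the tables, which is 19 above the RefSeq length (GRCm38.p6).

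TET and CD8 libraries of the same number and strain were paired as coming from the same animal, a link inferred from the shared numbers and the 4 mice per strain of the design text. Correlations of their deviations in V use, over 15 families, were -0.540, 0.148 and 0.572 for WT pairs. For mutant pairs they were -0.0405, -0.0744, 0.0971 and -0.189. Alternatives were TMM factors, DESeq2 1.42.0, no filter, thinning, amino acid clonotypes, single counts left out, a replicate block and each library left out. Leaving out TRBV13 from the reference, or WT TET 2 with mutant TET 4, was added after seeing the data.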

Additional observations from a re-analysis of the deposited data

Results flagged for a closer look

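In 45 groups of 4 values, each tested for a library far from the others of its group, 2 values stood out. Chance flags about 1 in 20 groups, so 2 in 45 are about what chance gives. WT TET, with 3 libraries, could not be tested in this way. Both flagged values are of mutant TET library 4. Its log2 relative clone size was -7.17 for TRBV2, where the other mutant TET libraries lay between -2.60 and -2.03, and -6.81 for TRBV5, where the others lay between -1.60 and -1.27. In this library the 18 clonotypes shared with WT TET library 2, none of them TRBV2, TRBV4 or TRBV5, held 88.9% of counts. Their part in the 2 values was not tested.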

How the results depend on the processing

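With TMM factors the count comparison of TET and CD8 turned to 0.25 for TRBV2 and 1.71 for TRBV4, the difference of strain effects turned to -0.16 for TRBV2 and -0.082 for TRBV4, and the calls by clonotype were 0 between strains in TET (in place of 1) and 1 for that difference (in place of 0). The 1 call between strains in TET became 0 with DESeq2, with no filter on low counts, after thinning, without single-count clonotypes and without the pair of libraries that share large clonotypes (WT TET 2, mutant TET 4). In WT only, TET against CD8 gave 6 calls in place of 13 and -0.12 for TRBV5. The TRBV4 clonotype ratio, close to 0, turned to 0.017 with amino acid clonotypes, 0.032 in mutant only, 0.29 after thinning, 0.0051 without the pair of libraries and 0.26 without single-count clonotypes. Between strains in CD8, TRBV2 turned to 0.0058 with amino acid clonotypes and TRBV4 to -0.0019 without single-count clonotypes.

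With the replicate block, which pairs TET and CD8 libraries of the same number and strain, calls of TET against CD8 fell from 4 to 0 for length and from 1 to 0 for TRBJ1, and the call between strains in TET to 0. The paired TRBJ1 differences turned to 2.20 for TRBV2 and 1.43 for TRBV5, and the TRBV4 clonotype ratio to 0.011. The block changed no other call of the 3 families but TRBV4 length. With TRBV13 left out of the reference, calls were 5 in place of 0 for length against the rest in TET, 3 in place of 10 for clone size between fractions and 0 in place of 11 against the rest in TET. TRBV4 turned to -0.094 for length and 0.634 for TRBJ1 against the rest in CD8, and to 1.19 (between fractions) and 1.00 (against the rest in TET) for clone size. With median counts 3 families in place of 10 were called and TRBV4 turned to 0.48.

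At least 5 clonotypes per library left 2 families, with 0 calls for length and TRBJ1 and 2 for clone size (2 against the rest in TET). Without the pair of libraries, TRBJ1 calls between fractions were 3, and those of clone size against the rest in TET were 0, since 5 libraries cannot reach the threshold. TRBV2 then turned to -0.141 for length and 1.30 for TRBJ1, and TRBV4 to 1.91 for TRBJ1. Without single-count clonotypes, 2 families were called for length and 2 for TRBJ1, and TRBV5 turned to 3.46 for TRBJ1. With amino acid clonotypes it was 1.28.

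Leaving out each library in turn, calls ranged from 0 to 2 between strains in TET, 0 to 1 for the difference of strain effects, 1 to 2 for TRBJ1 and 2 to 5 for length between fractions. The TRBV4 clonotype ratio ranged from -0.065 to 0.034, and TRBV2 between strains in CD8 from -0.068 to 0.071. TRBJ1 differences between fractions ranged from -6.03 to 2.31 for TRBV2, -8.25 to 0.0844 for TRBV4 and -5.92 to 4.08 for TRBV5, and TRBV2 against the rest in TET from -9.52 to 0.537. Length ranged from -0.0802 to 0.420 for TRBV2 between fractions and from -0.0038 to 0.0487 for TRBV4 against the rest in CD8. The causes of these changes were not tested. WT TET libraries, with 1 to 11 clonotypes per family, limit each comparison of the strains in TET.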

Other observations

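The deposited tables give TRBV5 a V reference length of 300 or 303 nucleotides. The share of TRBV5 clonotypes with a length of 300 was 66.2% in WT CD8 library 2 and 71.6% in mutant CD8 library 1, and 31.0% to 45.4% in the other CD8 libraries. Of 123 TRBV5 CDR3 sequences found in 2 or more libraries, 61 carried more than 1 of the lengths. The length was therefore used in no comparison.

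The 3 families together made up 4.90%, 7.14% and 17.5% of the clonotypes of the WT TET libraries and 15.01% to 16.03% in mutant TET. In the CD8 libraries they made up 10% to 11.7%.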
